A study of Gallus gallus with 8 samples.

Results

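The 73 genes of interleukins, colony stimulating factors, their receptors and regulators were taken by name from a count table of 24154 genes. They are all genes whose symbol starts with IL and a digit, apart from *IL8L1*, *IL8L2* and *IL34*, together with *CSF2*, *CSF3*, their receptor genes *CSF2RA*, *CSF2RB* and *CSF3R*, the gp130 cytokine *LIF* with the receptors *LIFR* and *OSMR*, and the feedback inhibitors *SOCS1* and *SOCS3*. By role they were 28 ligands, 38 receptor chains, 4 decoys or antagonists, 2 feedback inhibitors and an enzyme (*IL4I1*). Messenger RNA was sequenced from 4 libraries of fusing pygostyle IVDs, the discs that turn into bone as the tail vertebrae fuse, and 4 libraries of free caudal IVDs, which stay unfused. All came from 10-wk-old chickens with no treatment named. The labels give the breed as white leghorn and the methods as Tetra. The methods name 8 chickens and 4 biological replicates of each tissue, without saying whether a bird gave both kinds of disc. The p-values measure only the spread between these libraries.

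Interleukins are secreted signals through which leukocytes and tissue cells call in, activate or restrain one another. They bind receptor chains that are shared within families, so that a cell responds only where the ligand-binding chain and its signalling partner are present together. IL-1 family receptors signal through a domain shared with the toll-like receptors, most other families signal through JAK kinases and STAT transcription factors, and decoy receptors or SOCS proteins dampen the response. In cartilage and discs these signals are known for driving matrix breakdown, and in bone for steering osteoclasts and osteoblasts.

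Library totals ran from 5682402 counts (fusing replicate 2) to 18434459 counts (fusing replicate 4). Values are CPM, counts scaled to a common library size with TMM factors, listed for replicates 1 to 4, and log2 fold changes, called log2 changes for short, are of fusing pygostyle over free IVDs with their standard error (SE). The SE was approximated as the absolute log2 change divided by the square root of the F statistic of the edgeR test. A gene was called at an edgeR adjusted p under 0.05 and a change over 2-fold. Markers of disc cartilage and annulus (8 genes) were present in every library and summed to 149500 to 224100 CPM in free and 44100 to 129000 CPM in fusing IVDs. *COL2A1* was the largest part of this sum in every library. The list was mixed, with 3 genes called lower (*COL2A1*, *SOX9* and *CHAD*), 1 called higher (*MATN1*, log2 change 3.63) and the others not called. Of the leukocyte markers, all 7 of 14 heterophil genes that were found in the table were called higher, with sums of 92.4 to 360 CPM in free and 1032 to 4817 CPM in fusing IVDs. Also called higher were 8 of 8 tested macrophage genes (33.4 to 63.1 and 229 to 451 CPM), 5 of 7 T cell genes (10.1 to 24.0 and 30.1 to 82.5 CPM), 3 of 3 B cell genes (3.43 to 7.87 and 21.2 to 104 CPM), 4 of 5 osteoclast genes (283 to 581 and 1671 to 2065 CPM) and 5 of 5 osteoblast genes (146 to 1135 and 3863 to 5487 CPM). No marker of these lists was at 0 across the free libraries, and the 3 eosinophil markers chosen were not found under their symbols. Endothelial markers summed to 72.3 and 80.0 CPM in free replicates 1 and 2, 357 and 302 CPM in free replicates 3 and 4 and 159 to 188 CPM in fusing IVDs, and none of the 5 was called. Skeletal muscle markers, none of 4 called, summed to 768 CPM in fusing replicate 4 and 4.00 to 11.4 CPM in the other fusing libraries, and to 17.2 CPM in free replicate 3 and 354 to 461 CPM in the other free libraries. Red cell markers, 1 of 3 called higher, summed to 2814 to 10760 CPM in free and 5741 to 27690 CPM in fusing IVDs. In whole discs, fewer cells of a type and less RNA per cell cannot be told apart. The part of these cells in the differences reported was not tested.

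Receptors were measured far more often than ligands. Of the 73 genes, 47 passed the filter on low counts, among them 32 of the 38 receptor chains but only 9 of the 28 ligands. Of these 47, 17 were called higher (36.2%, against 13.2% of all tested genes) and 9 lower (19.1%, against 9.64%). Their median log2 change was 0.90, and that of all tested genes 0.01. All 4 fusing libraries lay above all 4 free libraries in 21 of the 47 genes (against 19.6% of all tested genes) and below them in 11 (against 20.2%). *IL1RAPL2*, *IL18RAP*, *IL21R* and *CSF2RB* reached the count minimum in no free library, so they passed the filter through the fusing libraries alone. *IL1R2*, *IL7*, *IL7R* and *IL5RA* reached it in 1 free library, *IL2RB* and *IL17B* in 3, and all of these in 4 fusing libraries. The filter asks for 4 libraries, so these genes too passed it only with the fusing libraries. Of the genes named here, all but *IL7R* were called higher. None of the 26 called genes changed sign under another test or scaling. Scaling by library totals instead of TMM factors raised the median of all genes by 0.69, whereupon 26 of the 47 genes were called higher (30.6% of all tested genes), and of those called lower (4.58%) only *IL11* and *SOCS3* remained.

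**Figure D1:**
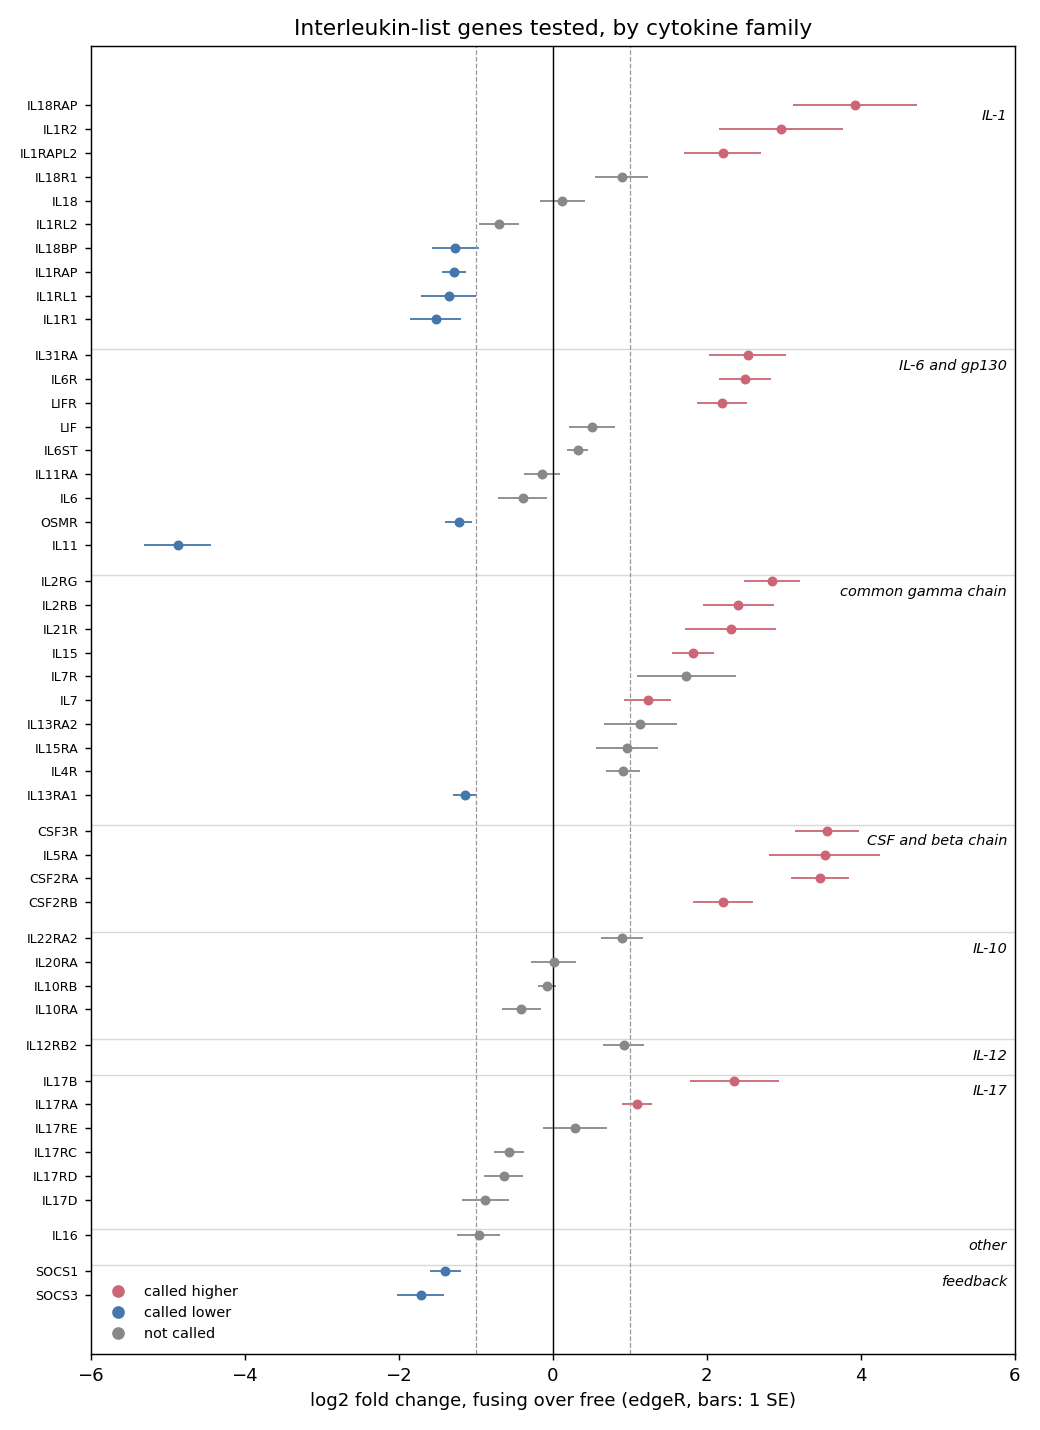
Log2 fold changes (fusing pygostyle over free caudal IVDs, horizontal axis) of the 47 tested genes by cytokine family, with 1 SE as bars; red marks genes called higher, blue genes called lower and grey genes not called, and dashed lines mark 2-fold. All 4 colony stimulating factor and beta chain receptors lie to the right, and IL11 at -4.87 lies farthest to the left.

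In the IL-6 family, which signals through the shared receptor chain gp130 (*IL6ST*), *IL11* was called lower while *IL6* and *LIF* did not pass the test. *IL11*, a cytokine of connective tissue and bone, had 86.5, 145, 41.1 and 159 CPM in the free libraries and 4.10, 2.93, 4.42 and 3.20 CPM in the fusing libraries. Even the lowest free library lay well above the highest fusing library. The gene, on chromosome 22 of GRCg6a from 3602680 to 3608993, fell by 4.87 on the log2 scale (edgeR, SE 0.44, adjusted p = 9.91e-05), a level 29.2-fold higher in free IVDs. Per transcript length, it held rank 2 of the 47 tested genes in free IVDs, at 145 ± 67.2 TPM (SD, n = 4), and rank 31 in fusing IVDs, at 6.57 ± 1.70 TPM (SD, n = 4). TPM are counts divided by gene length and scaled to a common sum in each library. *IL11RA*, the receptor chain that binds IL-11, had 25.3, 24.9, 25.9 and 31.3 CPM in free and 18.3, 15.7, 33.6 and 29.7 CPM in fusing IVDs, and these groups overlap. Its log2 change was -0.14 (edgeR, SE 0.24, adjusted p = 0.683).

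*IL6*, the acute phase cytokine, had 4.78, 2.71, 5.13 and 2.15 CPM in free and 3.29, 3.06, 2.66 and 2.37 CPM in fusing IVDs. Every fusing value lay inside the range of the free values, and the log2 change was -0.39 (edgeR, SE 0.32, adjusted p = 0.370). *LIF*, a gp130 cytokine that acts on bone cells, likewise overlapped between the groups, with 4.46, 3.98, 2.48 and 6.01 CPM in free and 5.88, 4.20, 6.55 and 7.28 CPM in fusing IVDs and a log2 change of 0.51 (edgeR, SE 0.29, adjusted p = 0.199). With library totals, *IL6* stood at 0.28 and *IL11RA* at 0.53, and *LIF* was called at 1.20. Exons of *IL6* share 1.07% of their length with LOC107052553, so a small part of its counts is uncertain.

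The receptor chains of the family moved in opposite directions. *IL6R*, which binds IL-6, had 1.62, 1.90, 2.48 and 1.502 CPM in free and 9.93, 13.8, 5.25 and 13.6 CPM in fusing IVDs, with a log2 change of 2.50 (edgeR, SE 0.34, adjusted p = 0.000598). *LIFR*, the receptor chain for *LIF*, had 5.82, 4.34, 11.6 and 10.4 CPM in free and 27.9, 29.2, 43.5 and 46.0 CPM in fusing IVDs, with a log2 change of 2.20 (edgeR, SE 0.32, adjusted p = 0.000885). *IL31RA*, which in mammals pairs with *OSMR* to bind IL-31, had 1.75, 1.18, 5.48 and 4.08 CPM in free and 15.2, 29.8, 9.82 and 17.1 CPM in fusing IVDs, with a log2 change of 2.53 (edgeR, SE 0.50, adjusted p = 0.00383). In each of these, the lowest fusing library exceeded the highest free library (against 19.6% of all tested genes). *OSMR*, the oncostatin M receptor chain, instead had 162, 140, 134 and 176 CPM in free and 59.3, 56.7, 88.3 and 58.3 CPM in fusing IVDs, and was called lower with a log2 change of -1.22 (edgeR, SE 0.17, adjusted p = 0.000761). With library totals it had -0.54 and was not called. *IL6ST* itself, the partner of them all except *IL31RA*, had 55.1, 63.5, 52.4 and 77.5 CPM in free and 77.8, 77.2, 83.4 and 72.6 CPM in fusing IVDs. The groups overlap and the log2 change was 0.32 (edgeR, SE 0.14, adjusted p = 0.0885), though with library totals it was called at 1.03.

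*LIFR* and *OSMR* are neighbors at 12007422 to 12182419 of chromosome Z (GRCg6a), with no other gene of the table between them, and were called in opposite directions. *IL31RA* and *IL6ST* are neighbors too, from 16980997 to 17061154 on chromosome Z. The log2 ratio of *IL6R* to *IL6ST* was -4.95 ± 0.50 (SD, n = 4) in free and -2.95 ± 0.71 (SD, n = 4) in fusing IVDs, a difference of 2.01 (exact permutation test, two-sided, p = 0.0286, adjusted p = 0.0286 over 6 such ratios, and the smallest p that 4 against 4 libraries allow). The log2 ratio of *IL6* to *IL6R* was 0.86 ± 0.48 (SD, n = 4) in free and -1.76 ± 0.66 (SD, n = 4) in fusing IVDs, a difference of -2.63 (exact permutation test, p = 0.0286, adjusted p = 0.0286). Both ratios hold *IL6R*, and the ranges of the single genes fixed both p-values beforehand. They add nothing to the call of *IL6R*.

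**Figure D2:**
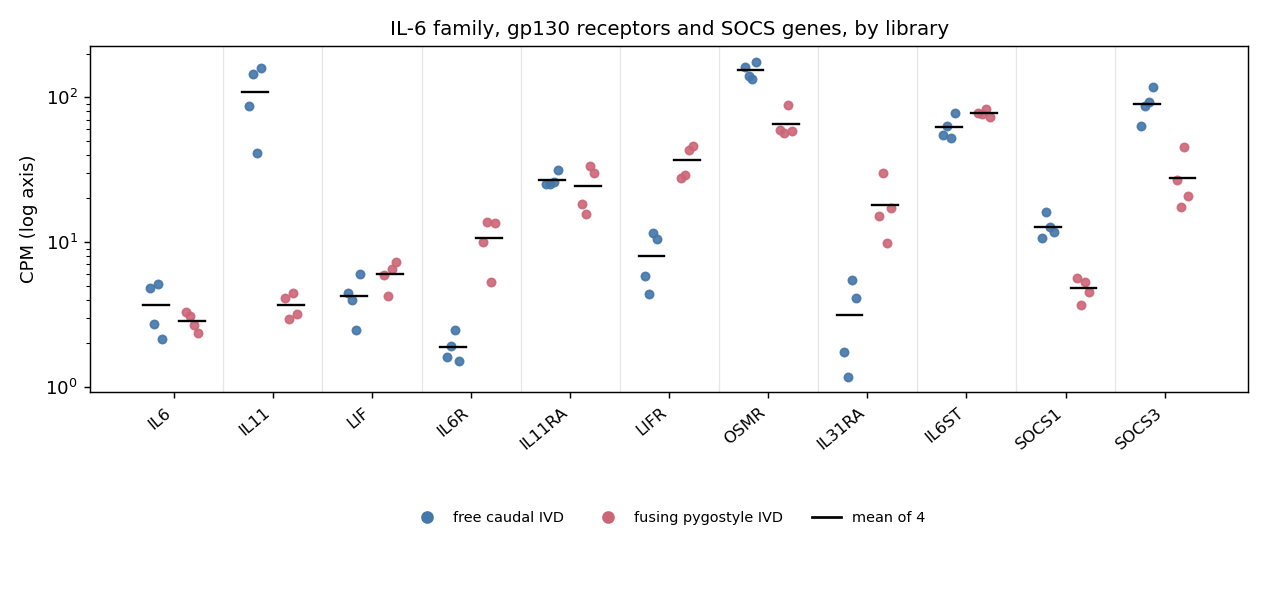
CPM on a log axis of IL-6 family ligands, gp130 receptor chains and SOCS genes, with each point a library (blue free, red fusing, 4 each) and black lines the means. IL11 and SOCS3 lie lower in all 4 fusing libraries, IL6R, LIFR and IL31RA lie higher, and IL6 overlaps.

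The feedback inhibitors were lower in fusing IVDs. *SOCS3*, which is induced by STAT3 and blocks gp130, had 63.2, 87.1, 92.5 and 118 CPM in free and 26.6, 17.4, 45.2 and 20.7 CPM in fusing IVDs, with a log2 change of -1.71 (edgeR, SE 0.31, adjusted p = 0.00223). *SOCS1*, which restrains interferon and gamma chain receptors, had 10.6, 16.0, 12.6 and 11.7 CPM in free and 5.67, 3.69, 5.33 and 4.52 CPM in fusing IVDs, with a log2 change of -1.40 (edgeR, SE 0.20, adjusted p = 0.000787). Neither gene had a fusing library that reached the lowest free library (against 20.2% of all tested genes). With library totals *SOCS1* had -0.70 and was not called, while *SOCS3* remained called.

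Genes around these pathways that the name rule leaves out (JAKs, STATs, other SOCS and PIAS genes, IL-1 adaptors, NF-kB genes and further gp130 ligands and cytokine receptors) were taken as a list of 61, of which 50 were tested. Of these, 8 were called higher (against 13.2% of all tested genes), 4 lower (against 9.64%) and 38 were not called, with a median log2 change of 0.09. Both counts are near the share over all genes. The feedback inhibitors tested in this list were not called: *CISH* (0.93), *SOCS2* (0.20), *SOCS4* (0.02), *SOCS5* (-0.54) and *SOCS6* (0.04). *CLCF1*, a gp130 ligand, had 17.8, 42.0, 13.6 and 18.0 CPM in free and 0.648, 0.382, 0.761 and 0.658 CPM in fusing IVDs, with a log2 change of -5.15 (edgeR, SE 0.43, adjusted p = 8.57e-05). All fusing libraries lay below all free libraries. *CNTFR*, the binding chain of the ciliary neurotrophic factor receptor, had a log2 change of -1.37 (edgeR, SE 0.39, adjusted p = 0.0201) with overlapping libraries. Its call was lost when free replicate 1 (-1.19) or fusing replicate 1 (-1.36) was left out and with library totals (-0.75). *NFKBIZ*, an NF-kB cofactor induced by IL-1 and IL-17, was also called lower, with -1.44 (edgeR, SE 0.20, adjusted p = 0.00065), and -0.74 and no call with library totals. Among the genes called higher were *PTPN6* (3.25), a phosphatase of blood cells, the macrophage receptor *CSF1R* (3.19), *STAT4* (1.91), which acts below the IL-12 receptor, and *JAK3* (1.88), the kinase of the common gamma chain. *CSF1R* also stands in the macrophage marker list. For *STAT4* the groups overlapped, with 1.36 CPM in free replicate 2 and 1.29 CPM in fusing replicate 3. With the sample-code number as a block, an alternative described below, neither *STAT4* (1.64) nor *CNTFR* (-0.84) was called.

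In the IL-1 family, 3 of 10 tested genes were called higher (13.2% of all tested genes) and 4 lower (9.64%). All 3 called higher, *IL1R2*, *IL1RAPL2* and *IL18RAP*, passed the filter only with the fusing libraries. For IL-1 itself, *IL1R1* and *IL1RAP* were called lower and the decoy *IL1R2* higher. *IL1R1*, the signalling receptor for IL-1, had 31.9, 26.6, 31.6 and 25.0 CPM in free and 14.2, 8.91, 13.0 and 4.08 CPM in fusing IVDs, with a log2 change of -1.52 (edgeR, SE 0.33, adjusted p = 0.00624). *IL1RAP*, the accessory chain that *IL1R1* needs to signal, had 56.3, 69.1, 47.6 and 63.8 CPM in free and 25.7, 29.3, 20.6 and 21.9 CPM in fusing IVDs, with a log2 change of -1.28 (edgeR, SE 0.16, adjusted p = 0.000373). In both genes all fusing libraries lay below all free libraries (against 20.2% of all tested genes), and neither was called with library totals (-0.84 and -0.56). *IL1R2*, the decoy that binds IL-1 without signalling, had 0.388, 0.362, 3.80 and 0.107 CPM in free and 8.26, 10.3, 6.01 and 12.01 CPM in fusing IVDs, with a log2 change of 2.97 (edgeR, SE 0.80, adjusted p = 0.0165). Free replicate 3 stood far above the other free libraries, and without it the log2 change was 4.88. The same library had the highest summed osteoclast markers (581 CPM, against 283 to 296 CPM in the other free libraries) and macrophage markers (63.1 CPM, against 33.4 to 46.0 CPM). *CTSK* was most of the osteoclast sum in each free library. Free replicate 3 had 62.7 CPM of *ACP5* (0.858 to 1.81 CPM in the others) and 8.49 CPM of *ATP6V0D2* (0 to 0.452 CPM). *OCSTAMP* and *DCSTAMP* were not highest there. Free replicate 3 also had the highest osteoblast (1135 CPM, against 146 to 774 CPM), endothelial (357 CPM, against 72.3 to 302 CPM) and disc markers (224100 CPM, against 149500 to 211000 CPM). Of the osteoblast list, *PHEX* had 10.3 CPM there (0.711 to 0.904 CPM), while *BGLAP* was not highest there. Heterophil (92.4 CPM, against 98.4 to 360 CPM), red cell (2814 CPM, against 4881 to 10760 CPM) and muscle markers (17.2 CPM, against 354 to 461 CPM) were lowest there. The part of any of these cells in its *IL1R2* level was not tested. The log2 ratio of *IL1R2* to *IL1R1* rose from -5.32 ± 1.59 (SD, n = 4) in free to -0.03 ± 1.18 (SD, n = 4) in fusing IVDs, a difference of 5.28 (exact permutation test, p = 0.0286, adjusted p = 0.0286) and of 4.76 to 6.05 when each library was left out. Every fusing library lay above the free ones in *IL1R2* and below them in *IL1R1*, so this p was fixed beforehand. It adds nothing to the calls of these genes.

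The ligand *IL1B* was below the filter, with 2, 3, 3 and 3 counts in the free and 13, 1, 2 and 5 counts in the fusing libraries. Counts per TMM-scaled library size were 1.45 times as high in fusing IVDs, with a 95% interval of 0.67 to 3.32 for the counting error alone, and 2.31 times with library totals. A difference was not detectable at this depth. Exons of *IL1B* overlap LOC107054991.

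Among the receptors for other IL-1 type cytokines, *IL1RL1*, in mammals the IL-33 receptor, had 53.7, 18.3, 37.0 and 46.7 CPM in free and 16.2, 7.77, 16.4 and 20.2 CPM in fusing IVDs. The groups overlap at free replicate 2, and *IL1RL1* was called lower with a log2 change of -1.35 (edgeR, SE 0.36, adjusted p = 0.0150), but not with library totals (-0.70). *IL1RL2*, in mammals the IL-36 receptor, had 13.3, 13.2, 9.99 and 15.6 CPM in free and 8.10, 9.68, 4.42 and 9.82 CPM in fusing IVDs, all below the free libraries, and was not called, with a log2 change of -0.70 (edgeR, SE 0.26, adjusted p = 0.0587) that stood at 0.02 with library totals. *IL1RAPL2*, a member of the family best known from neurons in mammals, was weakly expressed, with 0.0646, 0.452, 0.265 and 0.429 CPM in free and 1.24, 1.91, 0.913 and 1.45 CPM in fusing IVDs. It was called higher, with a log2 change of 2.21 (edgeR, SE 0.50, adjusted p = 0.00724). Its relative *IL1RAPL1* had 2 counts over the free and 7 over the fusing libraries.

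For IL-18, a cytokine that drives interferon gamma from T and natural killer cells, the ligand did not pass the test while its antagonist and a receptor chain did. *IL18* had 10.3, 15.1, 8.04 and 12.9 CPM in free and 12.8, 19.1, 7.76 and 11.1 CPM in fusing IVDs, with a log2 change of 0.12 (edgeR, SE 0.29, adjusted p = 0.769), which lies within the spread between libraries. Its exons share 9.51% of their length with *SDHD*. *IL18BP*, the soluble antagonist, had 9.63, 19.7, 11.2 and 13.1 CPM in free and 3.08, 5.60, 7.08 and 6.58 CPM in fusing IVDs, all below the free libraries, with a log2 change of -1.26 (edgeR, SE 0.31, adjusted p = 0.0106) (-0.56 and not called with library totals). *IL18RAP*, the accessory chain, had 0.194, 0, 0.442 and 0 CPM in free and 2.92, 3.18, 0.761 and 3.77 CPM in fusing IVDs. Its log2 change was 3.92 (edgeR, SE 0.81, adjusted p = 0.00446), and 4.90 without free replicate 3. *IL18R1*, the binding chain, had 3.94, 4.34, 2.74 and 3.43 CPM in free and 6.69, 11.7, 4.11 and 4.82 CPM in fusing IVDs, with a log2 change of 0.90 (edgeR, SE 0.34, adjusted p = 0.0660). It was not called, but was without fusing replicate 3 (1.06) and with library totals (1.64).

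Of the IL-1 family, 6 receptor genes lie side by side and were not called in a common direction. *IL1R2*, *IL1R1*, *IL1RL2*, *IL1RL1*, *IL18R1* and *IL18RAP* lie in this order on chromosome 1 of GRCg6a, from 135054444 to 135245620, with no other gene of the table in the 191177 bases. The outer genes of the row, *IL1R2* and *IL18RAP*, were called higher, *IL1R1* and *IL1RL1* between them were called lower, and *IL1RL2* and *IL18R1* were not called.

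**Figure D3:**
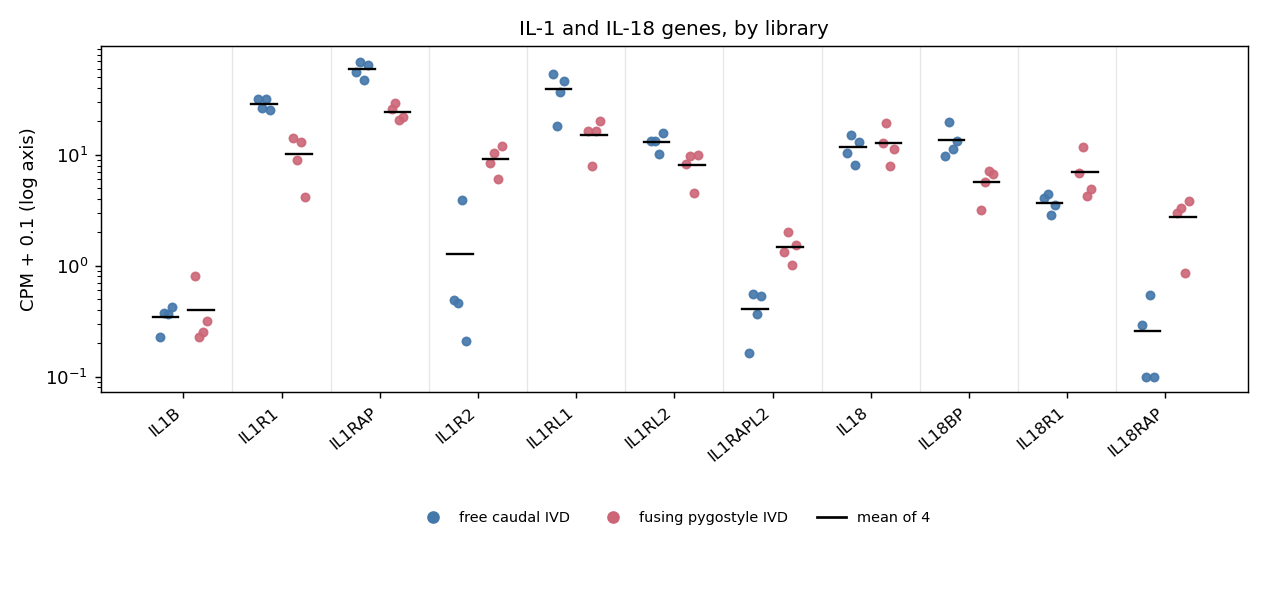
CPM plus 0.1 on a log axis of IL-1 and IL-18 genes, with each point a library (blue free, red fusing, 4 each) and black lines the means. IL1R1 and IL1RAP lie lower in every fusing library, IL1R2 and IL18RAP lie higher, and IL1B and IL18 overlap.

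The colony stimulating factor receptors, which mark and sustain granulocytes and macrophages, showed the steepest increases of the families by median (3.50 over the 4 genes, against 0.90 over the 47). *CSF3R*, the receptor for granulocyte colony stimulating factor, had 12.6, 10.4, 6.37 and 3.75 CPM in free and 102, 111, 49.6 and 132 CPM in fusing IVDs, with a log2 change of 3.56 (edgeR, SE 0.41, adjusted p = 0.000301). Per length it stood at rank 21 of the 47 genes in free and rank 3 in fusing IVDs, at 5.71 ± 2.76 and 87.3 ± 27.8 TPM (SD, n = 4). *CSF2RA*, the binding chain for granulocyte-macrophage colony stimulating factor, had 2.58, 1.99, 2.65 and 1.18 CPM in free and 24.7, 35.1, 11.4 and 23.7 CPM in fusing IVDs, with a log2 change of 3.47 (edgeR, SE 0.38, adjusted p = 0.000223). *CSF2RB*, the beta chain that signals for it, had 0.452, 0.542, 0.707 and 0.215 CPM in free and 2.81, 2.93, 1.90 and 1.53 CPM in fusing IVDs, with a log2 change of 2.21 (edgeR, SE 0.39, adjusted p = 0.00216). *IL5RA*, in mammals the IL-5 receptor of eosinophils, had 0.905, 0.452, 0.0884 and 0.107 CPM in free and 6.21, 4.71, 1.29 and 7.32 CPM in fusing IVDs, with a log2 change of 3.53 (edgeR, SE 0.72, adjusted p = 0.00426), and 4.42 without free replicate 1. Exons of *IL5RA* share 6.34% of their length with LOC107054407 and LOC112533326. All 4 genes were higher in every fusing library than in every free library (against 19.6% of all tested genes). Of these, *CSF2RB* passed the filter through the fusing libraries alone. *IL5RA* had 1 free library at the count minimum, so it too passed only with the fusing libraries.

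Their ligands were nearly absent. *CSF2* had 2 counts in a free library and 0 elsewhere, *CSF3* had 1 count over the free and 3 over the fusing libraries, *IL5* had 1 and 0, and *IL3* had 0 in all 8 libraries. A count of 0 over a tissue allows up to 3 counts, for counting error only, so low transcription was not measurable at this depth. *CSF2*, *IL3*, *IL5*, *IL13* and *IL4* share a stretch of chromosome 13 of GRCg6a, from 17414871 to 17659512, where in mammals too the type 2 cytokines are clustered. Together these 5 genes had 3 counts over the free and 3 over the fusing libraries, and none had more than 2 in a library.

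The common gamma chain family, most of whose receptors use *IL2RG* and serve lymphocytes, had 5 genes called higher (13.2% of all tested genes) and 1 lower (9.64%) of 10 tested. *IL2RG* had 7.56, 6.96, 6.37 and 3.11 CPM in free and 42.4, 56.8, 20.7 and 54.2 CPM in fusing IVDs, with a log2 change of 2.84 (edgeR, SE 0.36, adjusted p = 0.000438). *IL2RB*, which binds IL-2 and IL-15, had 0.969, 1.54, 1.06 and 0.536 CPM in free and 5.61, 9.68, 2.51 and 4.56 CPM in fusing IVDs, with a log2 change of 2.41 (edgeR, SE 0.46, adjusted p = 0.00316). *IL21R*, the IL-21 receptor, had 0.323, 0.271, 0.265 and 0 CPM in free and 1.13, 2.04, 0.685 and 0.965 CPM in fusing IVDs, with a log2 change of 2.31 (edgeR, SE 0.59, adjusted p = 0.0126). The lowest fusing library exceeded the highest free library in all 3 genes (against 19.6% of all tested genes), of which *IL21R* passed the filter through the fusing libraries alone. *IL2RB* had 3 free libraries at the count minimum, so it too passed only with the fusing libraries. *IL7R*, the IL-7 receptor of lymphocytes, had 0.775, 1.72, 0.265 and 0.536 CPM in free and 2.81, 4.71, 0.685 and 3.02 CPM in fusing IVDs, and the groups overlapped at fusing replicate 3. It missed the limit, with a log2 change of 1.74 (edgeR, SE 0.64, adjusted p = 0.0582), but was called without that library (2.04), without free replicate 2 (2.34), with the replicate number as a block (1.79, edgeR adjusted p = 0.00700) and with library totals (2.50). DESeq2 (1.76) and upper-quartile factors (1.83) also called it, while counts thinned to the shallowest library gave 0.91 (edgeR adjusted p = 0.368). A block by sample-code number, an alternative described below, gave 1.04 (edgeR adjusted p = 0.366) and no call. *IL2RA*, the high-affinity chain of activated T cells, was below the filter with 4, 3, 1 and 3 counts in the free and 24, 10, 6 and 11 in the fusing libraries. Its ratio of counts per TMM-scaled library size was 3.51, with a 95% counting interval from 1.81 to 7.47, and 5.60 with library totals.

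Of the ligands of this family, *IL15* and *IL7*, which stromal cells make, were the only ones that passed the filter. *IL15*, on chromosome 4 of GRCg6a from 29990010 to 30022148, had 5.69, 9.67, 9.81 and 6.97 CPM in free and 22.0, 39.2, 19.3 and 32.9 CPM in fusing IVDs, with a log2 change of 1.82 (edgeR, SE 0.27, adjusted p = 0.000960). Per length it rose from rank 13 of the 47 genes (20.6 ± 5.30 TPM, SD, n = 4) to rank 2 (93.2 ± 28.4 TPM, SD, n = 4). *IL7* had 1.36, 0.904, 0.796 and 0.966 CPM in free and 2.10, 3.31, 1.83 and 2.46 CPM in fusing IVDs, with a log2 change of 1.23 (edgeR, SE 0.30, adjusted p = 0.0107). Both ligands were higher in every fusing library than in every free library (against 19.6% of all tested genes). *IL7* had 1 free library at the count minimum, so it passed the filter only with the fusing libraries. *IL15RA*, which presents IL-15 to neighboring cells, had 0.905, 1.08, 1.15 and 1.18 CPM in free and 1.19, 3.31, 1.22 and 2.85 CPM in fusing IVDs. It was not called, with a log2 change of 0.97 (edgeR, SE 0.40, adjusted p = 0.0839), but was without fusing replicate 3 (1.14) and with library totals (1.67). The T cell cytokines *IL2*, *IL4* and *IL9* had 0 counts over the free and 1, 3 and 1 counts over the fusing libraries, and *IL13* and *IL21* had 0 in all 8 libraries.

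Of the receptors for IL-4 and IL-13, only *IL13RA1* was called. *IL13RA1*, the chain that signals with *IL4R* in tissue cells, had 109, 92.9, 111 and 84.8 CPM in free and 41.6, 46.5, 55.3 and 37.6 CPM in fusing IVDs and was called lower, with a log2 change of -1.14 (edgeR, SE 0.15, adjusted p = 0.000520) (-0.46 and not called with library totals). *IL4R* had 8.66, 5.97, 7.87 and 10.5 CPM in free and 18.4, 18.3, 12.03 and 13.3 CPM in fusing IVDs. All its fusing libraries lay above the free ones, but the change was under 2-fold, at 0.91 (edgeR, SE 0.22, adjusted p = 0.00996), and passed 2-fold without free replicate 4 (1.04), with upper-quartile factors (1.01) and with library totals (1.61). *IL13RA2*, a decoy for IL-13 in mammals, had 1.42, 1.81, 5.75 and 4.94 CPM in free and 10.4, 4.08, 7.69 and 7.94 CPM in fusing IVDs. The groups overlap and it was not called, with a log2 change of 1.14 (edgeR, SE 0.47, adjusted p = 0.0857). It was called without free replicate 3 (1.498), by DESeq2 (1.13), by limma-voom (1.47) and with library totals (1.81). The log2 ratio of *IL13RA2* to *IL13RA1* was -5.00 ± 1.01 (SD, n = 4) in free and -2.63 ± 0.66 (SD, n = 4) in fusing IVDs, a difference of 2.37 (exact permutation test, p = 0.0286, adjusted p = 0.0286). The ranges of the single genes fixed this p beforehand, so it adds nothing to their own results. *IL4R* lies beside *IL21R* and *IL9R* on chromosome 14 of GRCg6a, from 7689100 to 7739054. *IL9R*, below the filter, had 2 counts over the free and 19 over the fusing libraries, a ratio of 7.19 with a 95% counting interval from 1.73 to 63.6, and of 11.5 with library totals.

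**Figure D4:**
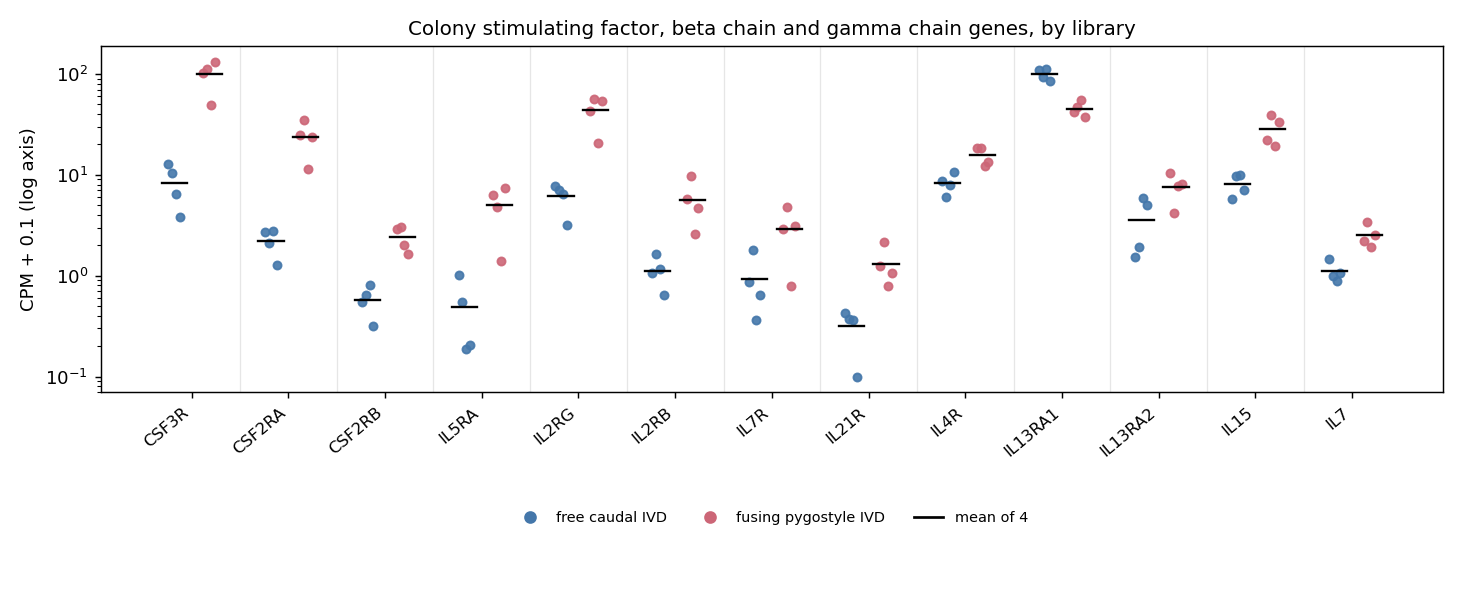
CPM plus 0.1 on a log axis of colony stimulating factor, beta chain and gamma chain family genes, with each point a library (blue free, red fusing, 4 each) and black lines the means. CSF3R, CSF2RA and IL2RG lie higher in every fusing library, IL13RA1 lies lower, and IL7R overlaps through a low fusing library.

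Of the 17 genes called higher, 14 had their lowest fusing value in fusing replicate 3, and none had its highest there. This order was not counted over all genes called higher, so it cannot be said to be particular to these 17. The summed leukocyte markers were lowest in the same library, at 1032 CPM for heterophils (3021 to 4817 CPM in the others), 229 CPM for macrophages (355 to 451 CPM) and 30.1 CPM for T cells (63.3 to 82.5 CPM), and the disc markers highest, at 129000 CPM (44100 to 78190 CPM). Red cell markers were lowest there too, at 5741 CPM (12590 to 27690 CPM in the others). Without fusing replicate 3, 22 of 49 tested genes were called higher, among them all 17, and 11 lower. Over all 13969 genes tested in this setting, 1886 were called higher and 1483 lower. The part of cell makeup in this order was not tested.

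In the IL-17 family, known for recruiting granulocytes, *IL17B* and the shared receptor chain *IL17RA* were called higher. *IL17B*, on chromosome 13 of GRCg6a from 9223756 to 9228952, had 4.01, 0.452, 8.57 and 4.40 CPM in free and 22.9, 15.03, 22.4 and 28.9 CPM in fusing IVDs, with a log2 change of 2.36 (edgeR, SE 0.58, adjusted p = 0.0106). Even the lowest fusing library exceeded the highest free library, although the free libraries themselves spread widely. *IL17B* passed the filter only with the fusing libraries. *IL17RA* had 23.7, 23.5, 23.3 and 26.1 CPM in free and 62.8, 64.2, 35.3 and 44.2 CPM in fusing IVDs, with a log2 change of 1.09 (edgeR, SE 0.19, adjusted p = 0.00196). This is close to the 2-fold limit, and it was not called without fusing replicate 1 (0.96) or fusing replicate 2 (0.97). *IL17D* had 54.0, 27.7, 72.7 and 50.9 CPM in free and 27.3, 18.1, 39.7 and 26.3 CPM in fusing IVDs, with a log2 change of -0.88 (edgeR, SE 0.30, adjusted p = 0.0458) that stayed under 2-fold. It was called lower without free replicate 2 (-1.09) and without fusing replicate 3 (-1.11), and ranged up to -0.67 with another library left out and to -0.24 with library totals. *IL17D* held rank 1 of the 47 genes per length in both tissues, at 323 ± 135 TPM in free and 224 ± 78.4 TPM in fusing IVDs (SD, n = 4), but its gene model spans only 351 bases, so this level is uncertain.

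The other IL-17 receptor chains were not called. *IL17RC*, which pairs with *IL17RA*, had 85.5, 120, 85.5 and 103 CPM in free and 52.1, 51.4, 79.8 and 81.9 CPM in fusing IVDs, a log2 change of -0.57 (edgeR, SE 0.20, adjusted p = 0.0457) and 0.12 with library totals. *IL17RD* had a log2 change of -0.64 (0.07 with library totals) and *IL17RE* of 0.29. *IL17REL*, a receptor-like gene below the filter, had 0 counts in all free libraries and 10, 4, 1 and 11 counts in the fusing libraries. With the 0 counts of the free group set to 3, the ratio per TMM-scaled library size was 6.56, and the exact 95% counting interval of the ratio starts at 4.97. Of the classical ligands, *IL17A* had 0 counts in all 8 libraries, *IL17F* had 2 and 5, and *IL17C* 2 and 7, over the free and fusing libraries.

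In the IL-12 family, which polarizes T cells, *IL12B* stood out among the genes of low count. It encodes the p40 chain shared by IL-12 and IL-23 and had 1, 0, 2 and 0 counts in the free and 22, 5, 8 and 23 counts in the fusing libraries. Its ratio of counts per TMM-scaled library size was 14.6, with a 95% counting interval from 4.76 to 73.0, and 23.4 with library totals. The partner chain of IL-23, *IL23A*, had 12 counts over the free and 38 over the fusing libraries, a ratio of 2.40 (interval from 1.23 to 5.04, and 3.83 with library totals), and its exons overlap *STAT2*. *IL12A*, the partner chain of IL-12, had 3 counts in each tissue. *IL12RB2*, the signalling receptor chain, had 1.68, 1.63, 2.48 and 1.93 CPM in free and 3.46, 4.58, 2.59 and 4.03 CPM in fusing IVDs. Each fusing library was above each free library, but the change stayed under 2-fold, at 0.92 (edgeR, SE 0.27, adjusted p = 0.0238). It was called without free replicate 3 (1.06), without fusing replicate 3 (1.04), with upper-quartile factors (1.01) and with library totals (1.62). Exons of *IL12RB2* share 22.8% of their length with *SERBP1*, so its counts are less certain. *IL12RB1* had 38 counts over each tissue, a ratio of 0.76 (interval from 0.47 to 1.22) that turned to 1.21 with library totals.

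No gene of the IL-10 family was called. *IL10RB*, a chain shared by the receptors for IL-10 and IL-22, had 14.9, 16.6, 16.4 and 17.7 CPM in free and 15.1, 15.3, 14.7 and 17.1 CPM in fusing IVDs, with a log2 change of -0.07 (edgeR, SE 0.12, adjusted p = 0.660), the smallest SE of the 47 genes. It stood at 0.62 with library totals. *IL10RA* had a log2 change of -0.41 (0.30 with library totals) and *IL20RA* of 0.01. *IL22RA2*, a soluble decoy for IL-22, had 1.55, 1.27, 1.503 and 1.07 CPM in free and 3.35, 2.17, 1.98 and 2.59 CPM in fusing IVDs, with a log2 change of 0.90 (edgeR, SE 0.27, adjusted p = 0.0277), under 2-fold with all fusing libraries above the free ones, and was called at 1.59 with library totals. Its log2 ratio to *IL10RB* was -3.48 ± 0.32 (SD, n = 4) in free and -2.58 ± 0.31 (SD, n = 4) in fusing IVDs, a difference of 0.90 (exact permutation test, p = 0.0286, adjusted p = 0.0286). This p too was fixed beforehand by the ranges of the single genes and adds nothing to their own results. The ligands *IL10*, *IL20* and *IL22* had 0, 0 and 2 counts over the free and 4, 1 and 6 over the fusing libraries, and *IL20RB* had 0 and 2.

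*IL16*, made as a precursor by lymphocytes and other cells and named for drawing in CD4 cells, was among the most abundant of the 47 genes per length, at rank 5 in free and rank 6 in fusing IVDs. It had 138, 97.5, 116 and 238 CPM in free and 67.5, 60.4, 82.7 and 92.1 CPM in fusing IVDs, all below the free libraries. The log2 change of -0.96 (edgeR, SE 0.28, adjusted p = 0.0212) stayed just under 2-fold, and passed it when free replicate 1 (-1.001), 2 (-1.12) or 3 (-1.07) or fusing replicate 3 (-1.02) or 4 (-1.07) was left out, and with counts thinned to the shallowest library (-1.02). It was -0.64 without free replicate 4, the highest library, and -0.28 with library totals. *IL4I1*, an enzyme that breaks down amino acids and is not a cytokine, had 2 counts over the free and 12 over the fusing libraries, a ratio of 4.54 (interval from 1.01 to 41.8, and 7.25 with library totals).

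**Figure D5:**
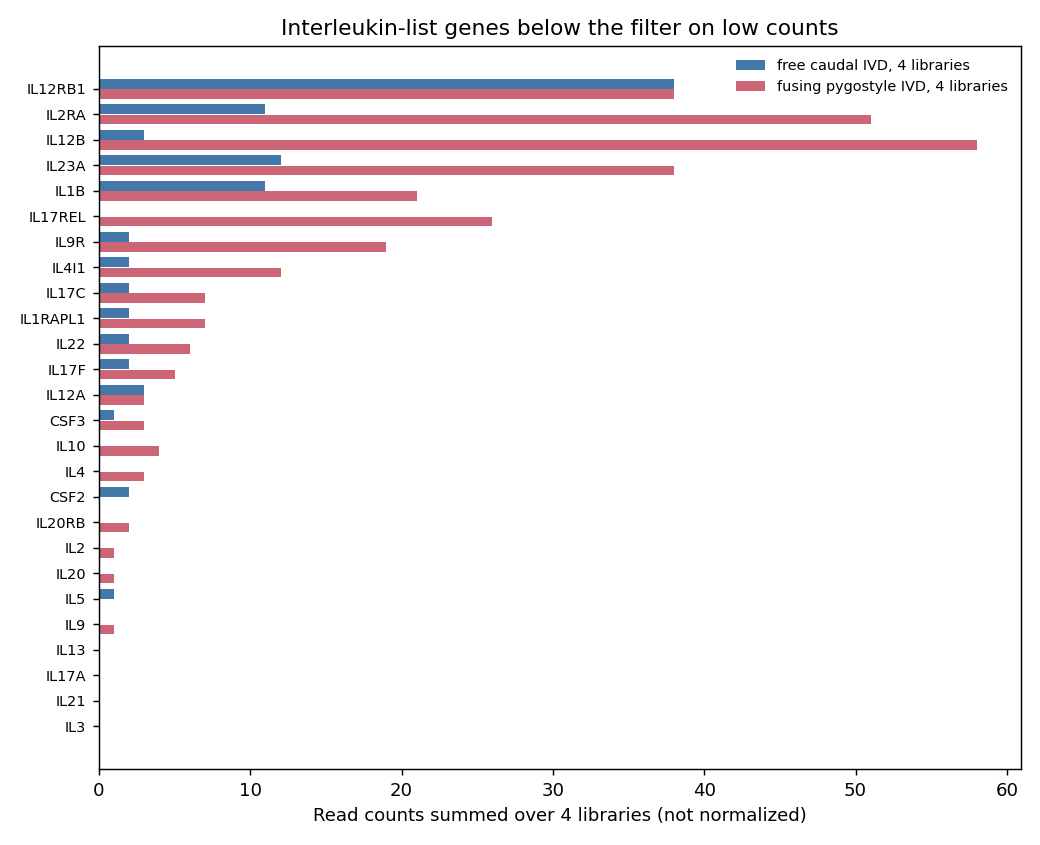
Read counts summed over the 4 libraries of each tissue (horizontal axis, not normalized) for the 26 genes below the filter, blue for free and red for fusing IVDs. IL12B and IL2RA show the widest gaps, and IL3, IL13, IL17A and IL21 had 0 counts in all 8 libraries.

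Over the 26 genes below the filter, 18 had more counts in the fusing libraries, 4 had none at all and 11 had at most 3 counts over the 8 libraries. These counts are not scaled, and equal counts in both tissues give a TMM-scaled ratio of 0.76, as for *IL12RB1*. The counting interval of the scaled ratio lay above 1 in 6 of the 26 genes and below 1 in 0. Neither the 18 nor the 6 was set beside all genes below the filter. The interval takes no account of the spread between libraries, so these ratios carry no test between the tissues.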

How the data were processed

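Poly(A) RNA of 4 free and 4 fusing pygostyle IVD libraries was sequenced without strand information. The authors aligned the reads with STAR to GRCg6a and deposited unnormalized counts per gene from featureCounts. Their second table holds their own comparison (fold changes and p-values) and was not used. Genes were filtered (edgeR filterByExpr, minimum count 10, minimum total 15), scaled by TMM and tested on all 8 libraries with the edgeR quasi-likelihood test (edgeR 4.0.16, R 4.3.3, Benjamini-Hochberg over 13639 genes). Alternatives used limma 3.58.1, DESeq2 1.42.0, other scalings and filters, thinned counts, replicate blocks and each library left out. Scripts were tested on simulated data.

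Genes below the filter were given as summed counts, with exact 95% intervals of the ratio per TMM-scaled library size. Log2 ratios used CPM with a prior count of 2. Exon overlaps were found with GenomicRanges 1.54.1, and without strand, reads of overlapping genes cannot be told apart. Chromosome names came from matching 70 of the 73 symbols and their neighbors to RefSeq, and coordinates from the deposited table. Per-library values were given for called genes and a set of ligand and receptor pairs, signalling genes only if called (up to 5 in each direction, of which some are not reported here), and some further uncalled genes chosen after their values were seen. The genes, lists and tests were chosen with earlier results of these data known. Deviations from the group means correlated at 0.24, 0.16, 0.11 and 0.25 between the free and fusing libraries of title numbers 1 to 4. Whether libraries of unlike title numbers correlate less was not tested. Title numbers 2 and 3 join libraries with unlike numbers in their sample codes. The title numbers served as a block in an alternative fit only, and the main fit had no pairing. What the title numbers mark is not given in the sources used here.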

Additional observations from a re-analysis of the deposited data

Results flagged for a closer look

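In 4 of 94 groups of 4 libraries, the farthest library stood apart from the others by more than Dixon's critical share of the range. Chance gives about 1 in 20, or 4.7 such groups. *IL1R2* had 3.80 CPM in free replicate 3, against 0.107 to 0.388 CPM in the other free libraries. *IL11RA* had 31.3 CPM in free replicate 4, against 24.9 to 25.9 CPM in the others. *OSMR* had 88.3 CPM in fusing replicate 3, against 56.7 to 59.3 CPM in the other fusing libraries. *IL17RA* had 26.1 CPM in free replicate 4, against 23.3 to 23.7 CPM in the others.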

How the results depend on the processing

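Of the 26 called genes, 13 kept their call under all 18 alternatives, and 2 more were below the filter in some alternative and kept it in the others. None changed sign. With each library left out in turn, 16 to 22 genes were called higher and 9 to 11 lower, beside 1589 to 1986 and 1225 to 1483 of all tested genes. With library totals, 26 were called higher and 2 lower, and of the signalling list 15 higher and 2 lower, beside 30.6% and 4.58% of all tested genes. With counts thinned to the shallowest library, 42 of the 47 genes could be tested and 12 of the 17 higher calls were kept. Over all 12354 genes tested in that setting, 1512 were called higher and 1176 lower. With the replicate number of the titles as a block, 18 genes were called higher and 9 lower, beside 1856 and 1320 of all tested genes. Among the 47 genes only the call of *IL7R* changed (1.79). In the sample codes, the numbers 12, 10 and 8 each occur in a free and a fusing library (correlations 0.24, -0.06 and 0.25). What the code numbers mark is not given, and whether they pair the samples was not settled. With the code number as a block, 14 genes were called higher and 8 lower, beside 1606 and 1232 of all tested genes. Of the signalling list, 6 were then called higher and 2 lower. *IL1RL1* (-1.05), *IL1RAPL2* (2.04), *IL7* (0.97), *IL21R* (2.14) and *IL17RA* (0.92) were then not called, and *IL13RA2* (1.84) was. *IL7R* (1.04) stayed uncalled with this block, unlike with the title numbers. The cause of these differences was not tested.

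The values that changed sign were all of uncalled genes. With library totals these were *IL1RL2* (0.0199), *IL6* (0.28), *IL11RA* (0.53), *IL10RA* (0.30), *IL10RB* (0.62), *IL17RC* (0.12) and *IL17RD* (0.0685). *IL18* had -0.28 with the code number as a block and -0.13 to 0.28 with each library left out. With each library left out, *IL20RA* had -0.21 to 0.14 and *IL11RA* -0.35 to 0.0104. *IL11RA* had 0.0038 when thinned. *IL10RB* had 0.0242 with upper-quartile factors and 0.0266 when thinned.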
